A study of Mus musculus with 34 samples.

Results

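The kidneys of *Pkd2*-KO mice treated with RGLS4326, an oligonucleotide inhibitor of miR-17, were compared across all genes with those of *Pkd2*-KO mice that received phosphate-buffered saline (PBS). The members were chosen by their labels alone, as the 11 RGLS4326 and the 11 PBS kidneys, 22 of the 34 samples in the series. The study's text gives other group sizes for this dosing schedule and a control oligonucleotide group that the labels do not name, so the groups here are those of the labels. All mice were C57BL6. Both groups were dosed subcutaneously on postnatal days P10, P11, P12 and P19, with 20 mg per kg RGLS4326 or with PBS, and their kidneys were collected at P28. The other 12 samples were kidneys of untreated wildtype mice of that age (UNT), which entered the fit as a group of their own and are given only for reference. The labels spell the genotype "Pdk2KO", and the study describes the strain as *Pkd2*-KO, in which a Cre active in kidney tubules deletes floxed *Pkd2*, so cells without this Cre keep the gene. Polyadenylated RNA of whole kidneys was sequenced, so fewer cells of a type and less RNA per cell of that type cannot be told apart.

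*Pkd1* and *Pkd2* encode the polycystins, membrane proteins of the primary cilium of tubule cells, and the loss of either causes autosomal dominant polycystic kidney disease. miR-17 and its relatives are microRNAs that pair through a short seed at their 5′ end with sites in the 3′UTR of mRNAs, lowering mRNA stability and translation. An anti-miR of the RGLS4326 kind binds the seed, which frees those mRNAs from repression. In the cystic kidney, the epithelium proliferates, tubule transport genes are lost, and macrophages and fibroblasts accumulate around the cysts.

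The mature sequences of miR-17-5p and 5 members of its family, from RefSeq on GRCm38.p6, are shown because they share the seed. RGLS4326 is complementary to bases 1 to 9 of miR-17, and bases 1 and 9 are not the same in all of them. They are written 5′ to 3′ with the seed, bases 2 to 8, in capitals, and the seed is the same in all 6.
miR-17-5p: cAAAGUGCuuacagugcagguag
miR-20a-5p: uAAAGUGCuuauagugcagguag
miR-20b-5p: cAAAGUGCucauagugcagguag
miR-106a-5p: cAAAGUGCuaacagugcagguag
miR-106b-5p: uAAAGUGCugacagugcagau
miR-93-5p: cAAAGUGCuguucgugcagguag

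The strongest match of an mRNA to this seed is the 8-base sequence GCACTTTA, the complement of bases 2 to 8 followed by A. It was searched on the sense strand, in 1 3′UTR per protein-coding gene (the longest in GENCODE M21, GRCm38), and 630 of the 14811 tested genes with a 3′UTR held it. The windows of 30 bases below lie in the 3′UTRs of both polycystin genes, of 5 genes with an 8-base match that rose after RGLS4326 and of 2 that fell, and the capitals mark the match. They show that the same 8 letters occurred in genes of either direction.
*Pkd2*, chr5:104503810-104503839, plus strand: tataattttctGCACTTTAatttattttac
*Pkd1*, chr17:24595721-24595750, plus strand: atggggcttctGCACTTTAaaaaggctgtg
*Mink1*, chr11:70614200-70614229, plus strand: attttctgaaaGCACTTTAatgattccccc
*Ginm1*, chr10:7768145-7768174, minus strand: ttttataagaaGCACTTTAtgaaattctaa
*Tnks2*, chr19:36890980-36891009, plus strand: tcctgttctcaGCACTTTAacagatgccat
*Epha4*, chr1:77373666-77373695, minus strand: acctcatccatGCACTTTAattgaagaact
*Usp46*, chr5:74000480-74000509, minus strand: tgaagaggataGCACTTTAtctaggtgaaa
*Nbl1*, chr4:139082483-139082512, minus strand: ccttcccagctGCACTTTAaccctagggca
*Ttc39a*, chr4:109423713-109423742, plus strand: tagtgtagcaaGCACTTTAgcttctgagtc

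Some libraries stood apart and are named here because results rest on them. Reads in genes ranged from 17603122 to 48891459 over the 22 *Pkd2*-KO libraries. Reads that fell in no gene made up 5.18% to 9.0% of the reads in PBS libraries (median 6.62%) and 4.94% to 12.01% in RGLS4326 libraries (median 8.38%), and 4 RGLS4326 libraries (5, 6, 7 and 11) were above 11% while no PBS library was. In UNT libraries the range was 9.84% to 11.3%. The numbering of the deposited files restarts after series 1 and 2, and the 3 file series held 4, 3 and 4 RGLS4326 libraries and 3, 4 and 4 PBS libraries; all 3 RGLS4326 libraries of series 2 were among those 4. PBS libraries 2 and 11 held transcripts of the adrenal cortex. *Hsd3b1*, a steroid-synthesis enzyme, stood at 189.2 and 379.6 CPM (counts per 1e6 reads in genes) in the 2 libraries against a PBS median of 0.183 CPM and a highest RGLS4326 value of 13.1 CPM, and *Cyp11b1*, the enzyme that makes corticosterone, at 103.4 and 212.4 CPM against a PBS median of 0.238 CPM. PBS library 9 stood furthest out on the first principal component of the 22 libraries (-53.6, against -41.3 to 46.4 in the others), and without it 2070 genes in place of 2892 were called lower. Of the 8 markers of the adrenal gland listed, 7 did not pass the filter on low counts because few libraries held more than a low level of them.

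**Figure D1:**
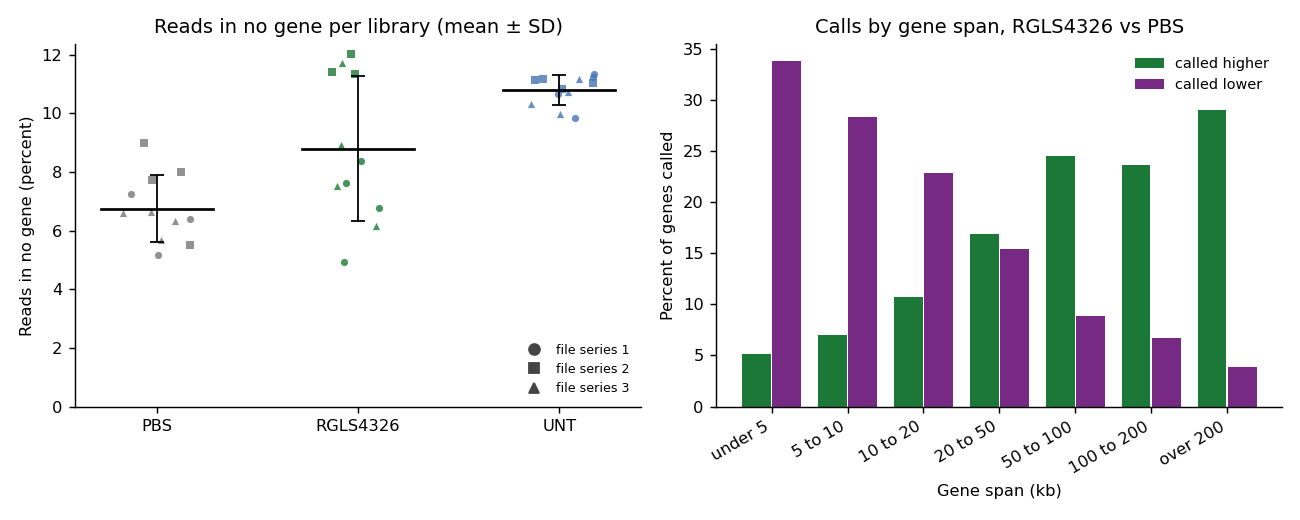
Left, the percent of reads in no gene in each library (points), with the mean and SD of the RGLS4326, PBS and UNT groups; right, the percent of tested genes called higher (green) and lower (purple) after RGLS4326, by the genomic span of the gene in kb. The points of 4 RGLS4326 libraries lie above 11%, above every PBS point, and the share called higher grows from 5.18% of genes under 5 kb to 29% of genes over 200 kb.

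To ask which transcripts differed between the groups, counts were scaled with TMM factors (a trimmed mean of log ratios between libraries) and fitted with the quasi-likelihood test of edgeR. Log2 fold changes are RGLS4326 minus PBS with their standard errors (SE), levels are CPM after that normalization, and adjusted p is the two-sided Benjamini-Hochberg value over all 15644 genes tested, with genes called at an adjusted p under 0.05. Of these genes, 2388 (15.3%) were called higher and 2892 (18.5%) lower in the RGLS4326 group. Most of the differences were small: the median absolute log2 fold change was 0.379 among the genes called higher and 0.303 among those called lower, and 69.7% and 81.5% of them were under 0.5. Only 77 genes (0.492%) were called higher and 88 (0.563%) lower by more than 2-fold. No sample is said to share an animal with another, and the p-values measure the spread between these mice.

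The number of calls moved strongly with the libraries named above. Without RGLS4326 libraries 5, 6, 7 and 11, 179 genes (1.13%) were called higher and 153 (0.966%) lower. On the first principal component these libraries stood highest, at 36.85 to 46.36, against at most 21.99 in any other *Pkd2*-KO library. Leaving them out thus also removed the RGLS4326 kidneys at that end of the component and made the group smaller. A call lost in that fit can therefore not be tied to reads in no gene alone. With the no-gene percent as a covariate, 56 (0.358%) and 33 (0.211%) were called. Without file series 2 the counts were 993 (6.34%) and 1342 (8.56%), and without PBS libraries 2 and 11 they were 1205 (7.67%) and 1631 (10.4%). The part that these properties of the libraries have in the differences between the groups was not tested further.

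The signs of the differences were mostly shared by the file series. Differences within a series are of mean log2(CPM + 1) throughout. Of the 2388 genes called higher, 2235 (93.6%) were higher in RGLS4326 kidneys within each of the 3 series, against 28.3% of all tested genes, and of the 2892 called lower, 2827 (97.8%) were lower in each, against 32%. These genes were called on all 3 series together, so a shared sign is partly fixed by the call itself. The shares of all tested genes are therefore no like comparison. Series 2 alone, with 3 RGLS4326 and 4 PBS kidneys, called 2164 genes higher (13.6%) and 1901 lower (11.9%), and the kidneys of the other series did not enter that fit. Of its genes also tested in all libraries, 71.4% of 2141 higher genes were higher in series 1 as well (47.8% of all genes were) and 95.6% in series 3 (51.4% of all), while 86.8% of 1898 lower genes were lower in series 1 (52.2% of all) and 97.4% in series 3 (48.6% of all). The interaction of treatment with series called 0 of 15233 genes (0%) in edgeR, with 796 at an unadjusted p under 0.05, and 0 genes also with another normalization, without the filter and with the no-gene covariate.

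**Figure D2:**
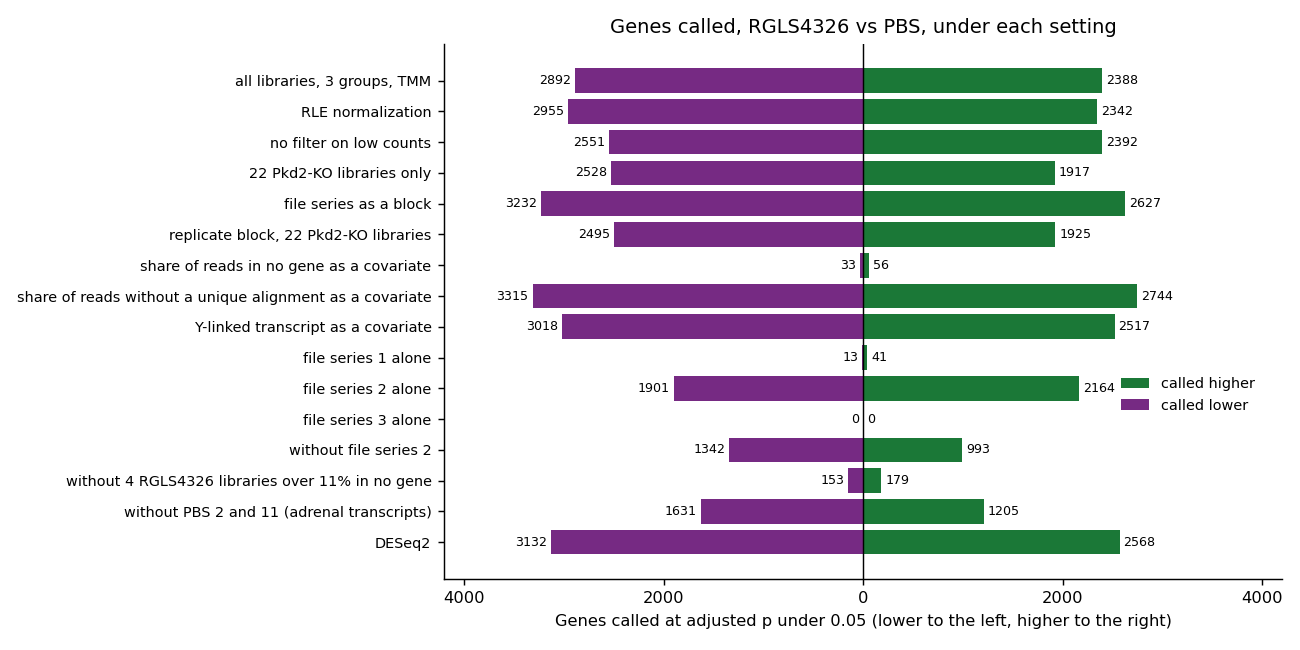
Number of genes called higher (right, green) and lower (left, purple) in RGLS4326 compared with PBS kidneys at an adjusted p under 0.05, in the fit of all libraries and under each alternative. The bars shrink to 56 and 33 genes with the no-gene percent as a covariate and to 179 and 153 without the 4 RGLS4326 libraries above 11%, and no gene was called in series 3 alone.

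The polycystin genes were higher after RGLS4326. *Pkd2*, which the knockout targets, lay between 170 and 237 CPM (median 210.3) in RGLS4326 kidneys and between 98.0 and 214 CPM (median 165) in PBS kidneys, so the groups overlapped. Its log2 fold change was 0.39 (SE 0.09, adjusted p = 0.00439), and UNT kidneys lay above most of both groups at 219.6 to 338 CPM. *Pkd1* lay between 132 and 205 CPM (median 184) in RGLS4326 and between 78.1 and 171 CPM (median 150.2) in PBS kidneys, a log2 difference of 0.30 (SE 0.10, adjusted p = 0.0286). UNT kidneys lay below every RGLS4326 kidney for *Pkd1*, at 72.3 to 128.5 CPM. The lowest PBS value of both genes was that of PBS library 9. The call on *Pkd1* was lost at an adjusted p of 0.0532 without PBS library 10, and exons of *Tsc2* overlap the gene on the opposite strand. Without the 4 RGLS4326 libraries high in no-gene reads the adjusted p was 0.0754 for *Pkd2* and 0.207 for *Pkd1*.

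Of 12 tested genes listed as polycystins and other cyst proteins, 3 rose (25%, against 15.3% of all tested genes) and 2 fell (16.7%, against 18.5%), with a median log2 fold change of 0.007 against 0.002 over all tested genes. *Glis2*, a nephronophthisis gene that encodes a zinc finger repressor, fell by 0.33 on the log2 scale (SE 0.07, adjusted p = 0.0031). None of the 12 was called without the 4 RGLS4326 libraries high in no-gene reads.

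The gene with the smallest p in the comparison carried the 8-base match. *Mink1*, a Ste20-family kinase and a member of the study's in vivo miR-17 signature (chr11:70562881-70614483), lay between 121 and 142 CPM (median 129.9) in RGLS4326 kidneys and between 83.8 and 110.1 CPM (median 97.4) in PBS kidneys. Every RGLS4326 kidney was above every PBS kidney. The log2 fold change was 0.40 (SE 0.05, adjusted p = 2.11e-05), and the call held without the 4 libraries (0.39, adjusted p = 0.000786) and with the covariate (0.36, adjusted p = 0.000777). A predicted gene overlaps *Mink1* on the opposite strand, and the strand setting of the counting is not given in the sources used here.

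Of the 10 signature genes, which the study chose for their response to miR-17 inhibition and which are therefore no independent evidence of direction, 6 rose and 0 fell, with a median log2 fold change of 0.308. Besides *Mink1* these were *Polq*, a DNA repair polymerase (0.81, SE 0.16, adjusted p = 0.00168), *Zfp367*, a zinc finger factor (0.64, SE 0.14, adjusted p = 0.00287), *Plekha3*, a Golgi phosphoinositide-binding protein (0.22, SE 0.06, adjusted p = 0.00715), *Clock*, the circadian transcription factor (0.40, SE 0.12, adjusted p = 0.0153), and *Cdc37l1*, a co-chaperone (0.47, SE 0.17, adjusted p = 0.0316). The call on *Cdc37l1* was lost in at least 1 fit that left out a single library, where its adjusted p reached 0.0615. *Ddhd1*, *Fyco1* and *Mtf1* had log2 fold changes of 0.15, 0.13 and 0.13 without passing the test, and *Nagk* had -0.01 (adjusted p = 0.878). Without the 4 RGLS4326 libraries *Mink1* alone of the 10 was called, although the median was still 0.23.

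**Figure D3:**
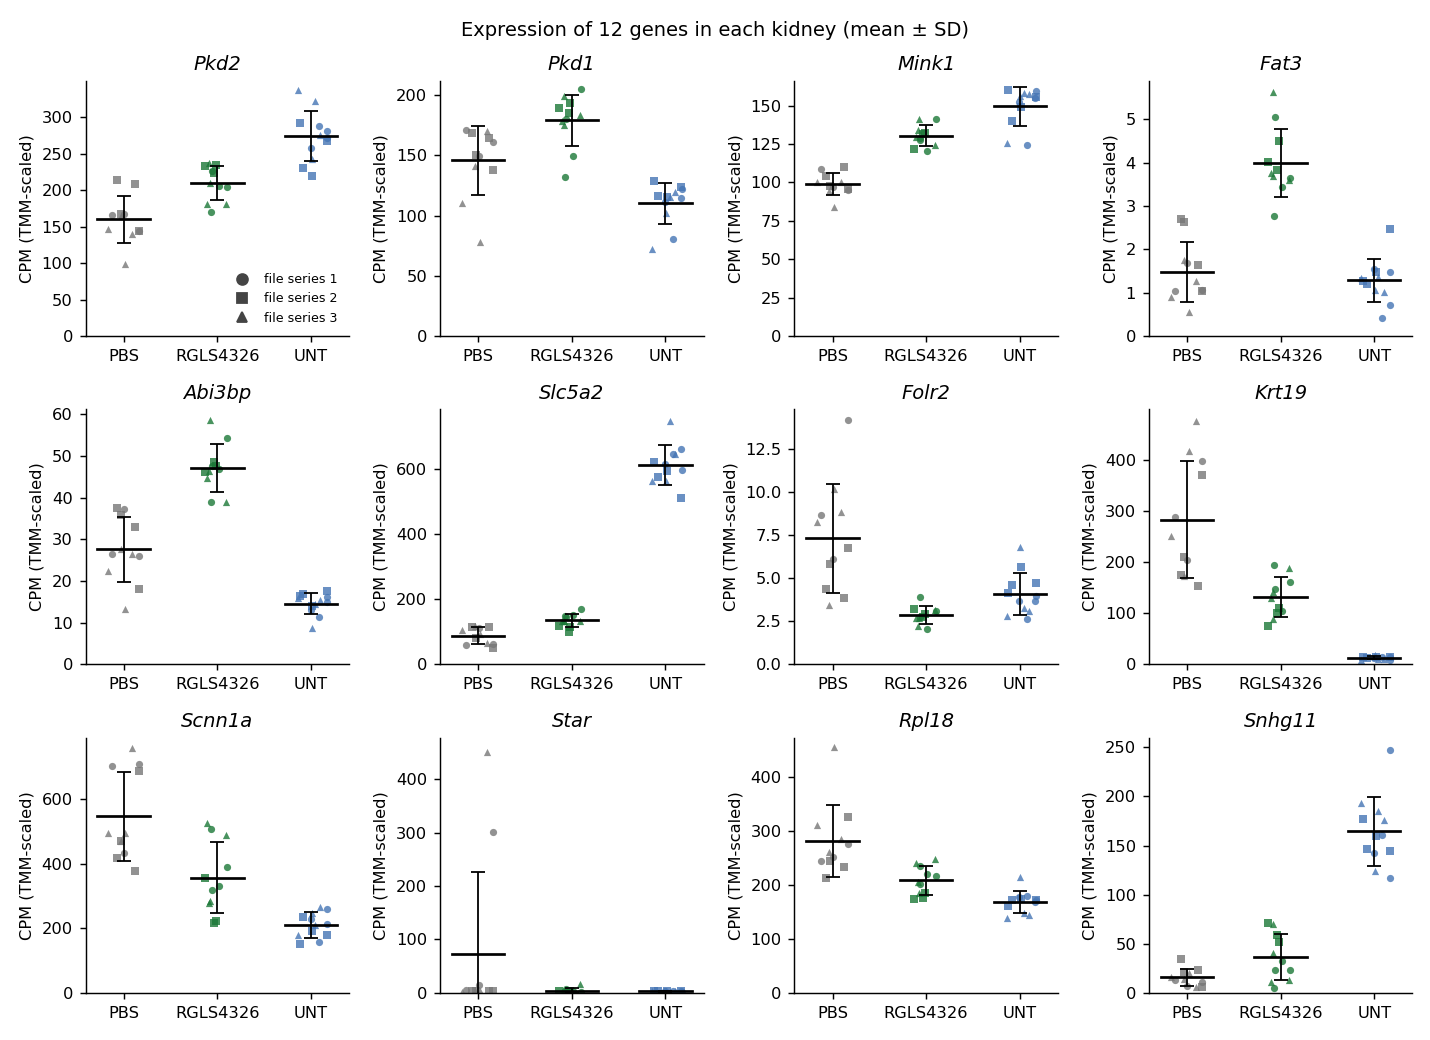
CPM of 12 genes in each kidney of the RGLS4326, PBS and UNT groups, with the mean and SD. Every RGLS4326 point of *Mink1*, *Fat3* and *Abi3bp* lies above every PBS point, *Pkd2* and *Pkd1* are shifted up with overlap, *Folr2* and *Krt19* are shifted down with overlap, and the mean of *Star* in the PBS group rests on PBS libraries 2 and 11.

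Genes with a seed match were shifted upwards as a class. Of the 630 genes with an 8-base match, 186 (29.5%) were called higher and 55 (8.73%) lower, with a median log2 fold change of 0.139. Of the 2489 genes with only a 7-base match (GCACTTT or CACTTTA), 618 (24.8%) were higher and 259 (10.4%) lower, with a median of 0.082. Of the 11692 genes without a match, 1427 (12.2%) were higher and 2531 (21.6%) lower, with a median of -0.034. The class medians kept this order without the 4 RGLS4326 libraries high in no-gene reads, at 0.11, 0.06 and -0.028, and with the no-gene covariate, at 0.089, 0.041 and -0.022. Called higher in the fit without the 4 libraries were 27 genes with an 8-base match (4.29%, against 1.13% of all tested genes), 40 with a 7-base match and 112 with none.

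The length of the 3′UTR moved with the same shift. Genes without any match in the shortest quartile of 3′UTRs (up to 493 bases) had a median of -0.111, with 238 of 3585 called higher and 1064 lower, while genes without a match in the longest quartile (over 2248 bases) had a median of 0.092, with 469 of 2007 higher and 204 lower. Within the longest quartile, 125 of 370 genes with an 8-base match and 381 of 1324 with a 7-base match were higher, with medians of 0.177 and 0.123. In the third quartile the medians were 0.117, 0.05 and 0.01 for the 8-base, 7-base and no-match classes, and in the next shorter quartile 0.047, 0.01 and -0.06. In the shortest quartile only 17 genes held an 8-base match, with a median of -0.028. The order of the 3 class medians was thus the same within each quartile, and the step from no match to an 8-base match was no larger than the step from the shortest to the longest 3′UTRs among genes without a match. The part of 3′UTR length in the class shift was not tested.

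**Figure D4:**
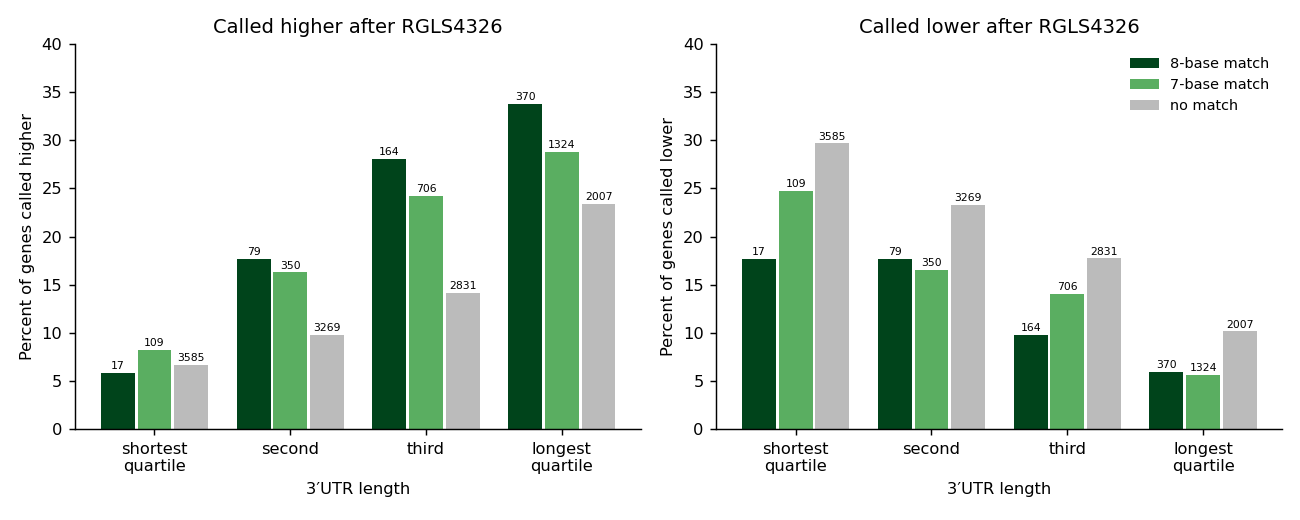
Percent of genes called higher (left) and lower (right) after RGLS4326, by quartile of 3′UTR length and by the class of seed match, with the number of genes above each bar. The share called higher grows with 3′UTR length in the no-match class too, and in the longest quartile 125 of 370 genes with an 8-base match and 469 of 2007 without a match were called higher.

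The genes with an 8-base match and the smallest p encode proteins of varied roles. *Ginm1*, a glycoprotein membrane protein, lay between 77.7 and 102 CPM (median 92.6) in RGLS4326 and between 61.8 and 81.7 CPM (median 72.9) in PBS kidneys, with a log2 difference of 0.34 (SE 0.05, adjusted p = 0.000216), and was called also with the no-gene covariate (adjusted p = 0.00149). *Tnks2*, the poly-ADP-ribose polymerase tankyrase 2, lay between 208.2 and 259 CPM in RGLS4326 and between 137 and 207 CPM in PBS kidneys, with no overlap of the groups (0.32, SE 0.06, adjusted p = 0.00131). *Epha4*, an ephrin receptor, lay between 20.1 and 28.5 CPM against 10.1 to 20.2 CPM (0.50, SE 0.09, adjusted p = 0.000914). A single PBS value of *Epha4* reached into the RGLS4326 range.

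*Usp46*, a deubiquitinase, rose by 0.36 (SE 0.07, adjusted p = 0.00119), and *Fam45a* by 0.40 (SE 0.07, adjusted p = 0.000934). *Rasa2*, a GTPase-activating protein for Ras, rose by 0.58 (SE 0.10, adjusted p = 0.000835). *Ano5*, of the anoctamin family, rose by 0.74 (SE 0.13, adjusted p = 0.000777), and the solute carriers *Slc25a40* and *Slc36a1* by 0.63 (SE 0.11, adjusted p = 0.000743) and 0.43 (SE 0.08, adjusted p = 0.00131). *Mink1* and all of these upward genes except *Slc36a1* were also called without the 4 RGLS4326 libraries. In that fit 1 gene with an 8-base match was called lower, against 55 in the fit of all libraries. In the opposite direction, *Nbl1*, a secreted antagonist of bone morphogenetic proteins, fell by 0.59 on the log2 scale (SE 0.13, adjusted p = 0.00236), *Ttc39a* by 0.54 (SE 0.13, adjusted p = 0.00407), *Ctxn1* by 0.46 (SE 0.11, adjusted p = 0.00419), the synaptotagmin *Syt16* by 0.74 (SE 0.17, adjusted p = 0.00406) and *Lage3* by 0.35 (SE 0.09, adjusted p = 0.00515).

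The hosts of the microRNA and the silencing machinery were listed separately. Of 14 tested genes, 4 rose (28.6%, against 15.3% of all tested genes) and 1 fell (7.14%, against 18.5%). The count higher was 2 without RGLS4326 library 5 or 6 and 7 without RGLS4326 library 4 or PBS library 5. None of the 14 was called without the 4 RGLS4326 libraries high in no-gene reads. *Mir17hg* (adjusted p = 0.0137), the host transcript of the miR-17 cluster, lay between 0.720 and 13.9 CPM (median 3.25) in RGLS4326 and between 1.1 and 4.0 CPM (median 2.71) in PBS kidneys, a log2 difference of 1.12 (SE 0.34). Of the 11 RGLS4326 kidneys, 5 lay above every PBS kidney and 2 below every PBS kidney, and without the 4 RGLS4326 libraries high in no-gene reads its log2 fold change was -0.065. *Tnrc6a*, the GW182 scaffold of the silencing complex, rose by 0.47 (SE 0.14, adjusted p = 0.0111), with an adjusted p of 0.467 without those libraries, and *Tarbp2*, a Dicer partner, fell by 0.22 (SE 0.07, adjusted p = 0.0144).

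Some genes separated the groups completely or moved alike in every file series. Besides *Mink1* and *Tnks2*, the groups did not overlap for 5 more genes that were higher (7 in all, 0.0447% of genes tested) and for 3 that were lower (0.0192%). *Fat3*, a giant protocadherin, lay between 2.77 and 5.63 CPM (median 3.77) in RGLS4326 and between 0.545 and 2.71 CPM (median 1.26) in PBS kidneys (log2 fold change 1.43, SE 0.22, adjusted p = 0.00019). *Abi3bp*, an extracellular matrix protein, lay between 39.0 and 58.6 CPM against 13.3 to 37.5 CPM (0.77, SE 0.13, adjusted p = 0.000396). *Slc40a1*, the iron exporter ferroportin, rose by 0.34 (SE 0.09, adjusted p = 0.00573), the G protein subunit *Gnb4* by 0.26 (SE 0.06, adjusted p = 0.00311) and *Clcc1*, a chloride channel of the endoplasmic reticulum, by 0.24 (SE 0.05, adjusted p = 0.00141). The 3 lower genes were *Lrrn4cl* (-1.08, SE 0.18, adjusted p = 0.000517), *Leng9* (-0.43, SE 0.08, adjusted p = 0.00131) and the amino acid transporter *Slc7a10* (-1.46, SE 0.34, adjusted p = 0.00354).

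Other genes were chosen for a shared sign in each series. *Unc13c*, a synaptic vesicle priming factor, lay between 2.60 and 5.95 CPM (median 4.31) in RGLS4326 and between 1.18 and 3.41 CPM (median 2.10) in PBS kidneys, a log2 difference of 1.03 (SE 0.15, adjusted p = 8.42e-05) that was 0.608, 0.845 and 0.908 within series 1, 2 and 3 as a difference of mean log2(CPM + 1), a scale that understates differences at low CPM. *Gria4*, a glutamate receptor subunit, rose by 0.80 (SE 0.12, adjusted p = 0.00019) and *Slc35f1* by 0.79 (SE 0.12, adjusted p = 0.000142). *F8*, coagulation factor VIII, which endothelial cells make, lay between 11.9 and 21.1 CPM against 7.54 to 13.9 CPM (0.65, SE 0.10, adjusted p = 0.000142). *Jam3*, a junctional adhesion molecule, rose by 0.34 (SE 0.06, adjusted p = 0.000396) and *Ecm2*, a matrix protein, by 0.79 (SE 0.13, adjusted p = 0.000396). These 6 genes were all called also without the 4 RGLS4326 libraries, with the no-gene covariate and without PBS libraries 2 and 11.

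**Figure D5:**
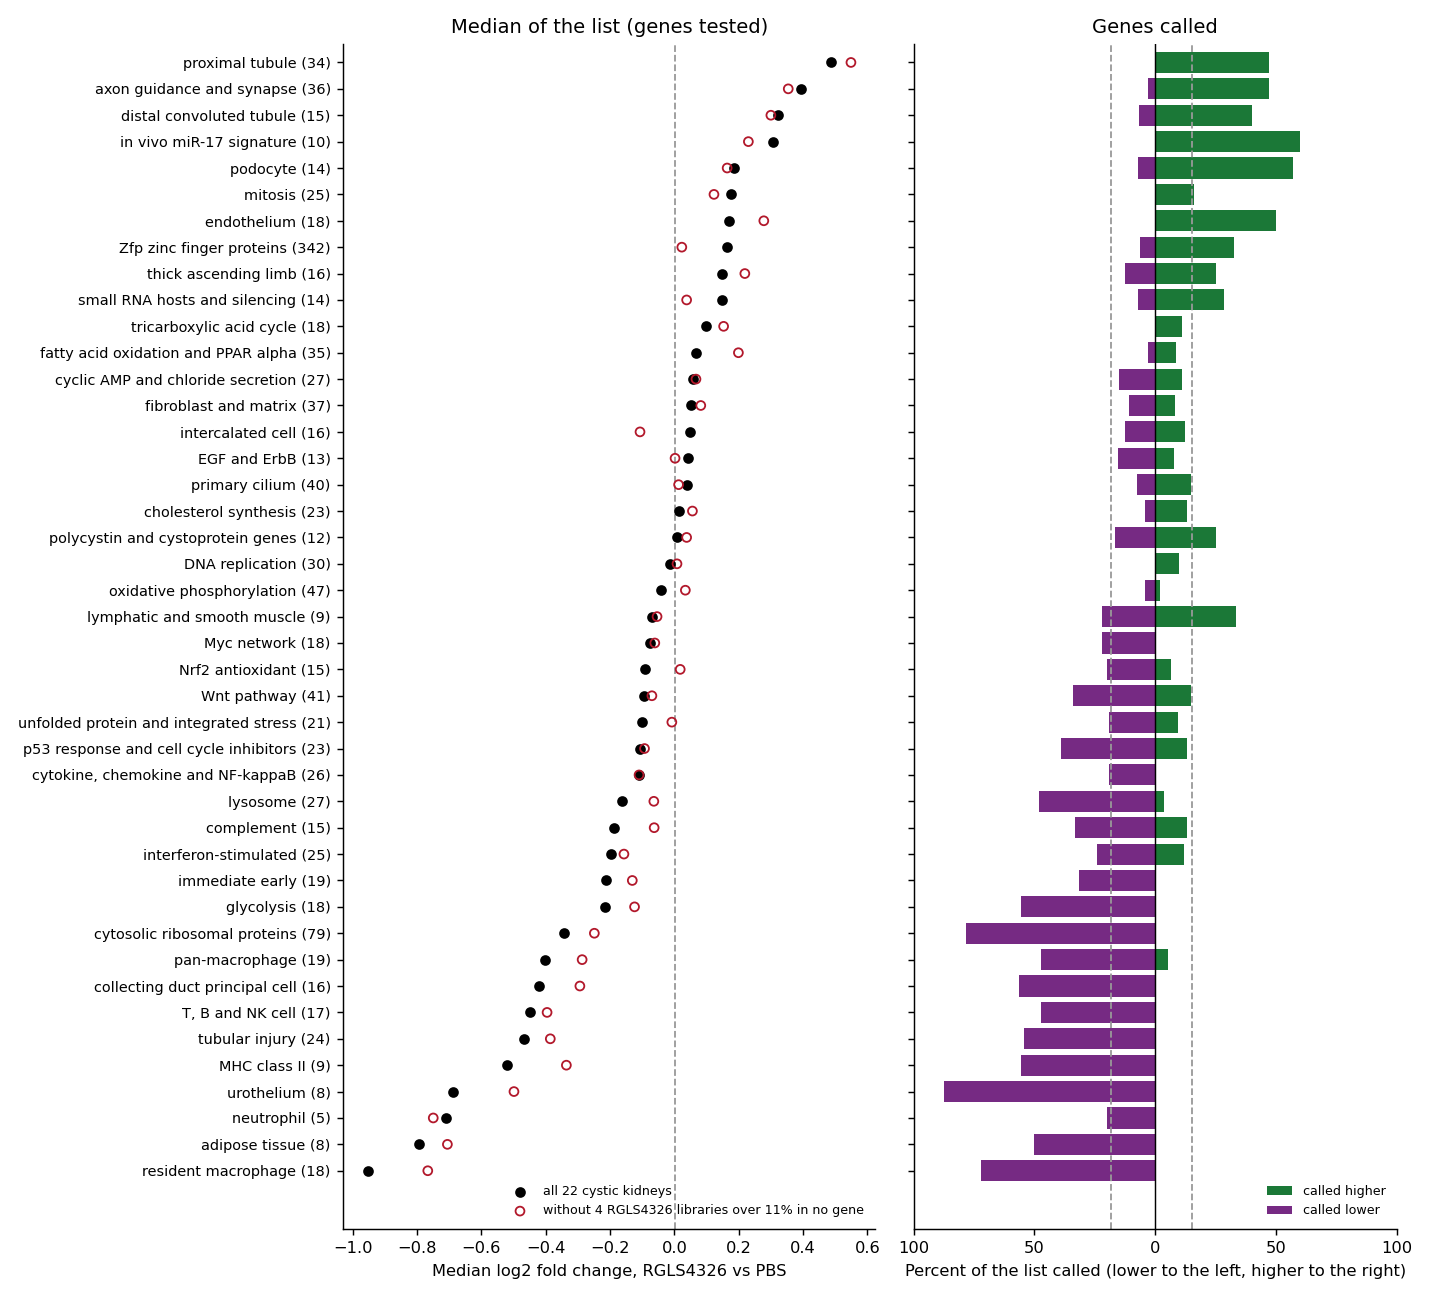
Left, the median log2 fold change of each gene list (filled) and the same without the 4 RGLS4326 libraries above 11% of reads in no gene (open); right, the percent of each list called higher and lower, with dashed lines at the 15.3% and 18.5% of all tested genes. Proximal tubule and axon guidance lists lie to the right of 0 in both fits, resident macrophage, urothelium and tubular injury lists to the left, and the bars of ribosomal protein genes show 62 of 79 called lower.

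Transport genes of the proximal tubule were higher. Of 34 markers of this segment, which reabsorbs most of the filtered glucose, amino acids and phosphate, 16 rose and 0 fell, with a median log2 fold change of 0.487, and the median differences within series 1, 2 and 3 were 1.127, 0.137 and 0.475. *Slc5a2*, the glucose transporter SGLT2, lay between 101.3 and 172 CPM (median 134) in RGLS4326 and between 49.2 and 117 CPM (median 93.7) in PBS kidneys, with overlap (0.61, SE 0.12, adjusted p = 0.00165). *Slc5a12*, a lactate transporter, lay between 165 and 288 CPM against 57.6 to 226 CPM (0.90, SE 0.21, adjusted p = 0.00402). *Slc34a3*, a phosphate transporter, rose by 0.74 (SE 0.18, adjusted p = 0.00522) and *Gatm*, which makes the creatine precursor, by 0.87 (SE 0.21, adjusted p = 0.00462).

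Summed over the 34 proximal tubule markers, RGLS4326 kidneys held 8371 to 16190 CPM and PBS kidneys 4580 to 16750 CPM, while UNT kidneys held 49660 to 69500 CPM. Both treated groups were thus far below wildtype kidneys. Without the 4 RGLS4326 libraries high in no-gene reads 6 were called higher and the median was 0.549, and without PBS libraries 2 and 11, 10 were called and the median was 0.358.

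The distal segments moved less evenly. In the distal convoluted tubule, 6 of 15 markers rose (40%, against 15.3% of all tested genes) and 1 fell (6.67%, against 18.5%), or 2 without PBS library 1. Those that rose included *Slc12a3*, the thiazide-sensitive sodium chloride cotransporter, at 256 to 440 CPM against 148 to 342 CPM (0.62, SE 0.13, adjusted p = 0.00193), and *Klhl3*, which degrades the kinases that activate it (0.57, SE 0.16, adjusted p = 0.00851). *Wnk1*, such a kinase, rose by 0.35 (SE 0.10, adjusted p = 0.00832). In the thick ascending limb, 4 of 16 rose (25%, against 15.3% of all tested genes) and 2 fell (12.5%, against 18.5%). *Slc12a1*, the furosemide-sensitive cotransporter, rose by 0.56 (SE 0.15, adjusted p = 0.00643), and *Foxq1*, a forkhead factor, fell by 0.38 on the log2 scale (SE 0.11, adjusted p = 0.0138). *Egf*, a growth factor of this limb and of the distal convoluted tubule, lay between 165 and 469.8 CPM (median 314) in RGLS4326 and between 27.8 and 390.2 CPM (median 128) in PBS kidneys, a broad overlap with a log2 difference of 1.09 (SE 0.33, adjusted p = 0.0135).

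The count of thick ascending limb genes that rose changed to 2 without RGLS4326 library 1 or PBS library 2, 3 or 11, and to 7 without PBS library 8, and the count of those that fell was 1 without PBS library 9. No marker of either segment was called without the 4 RGLS4326 libraries, where the medians were 0.219 for the thick ascending limb and 0.3 for the distal convoluted tubule.

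Many principal cell markers of the collecting duct were lower. Of 16 principal cell genes, 0 rose and 9 fell, with a median of -0.42. *Scnn1a*, a subunit of the epithelial sodium channel, lay between 216 and 526 CPM (median 332) in RGLS4326 and between 376 and 758 CPM (median 494) in PBS kidneys, with overlap (-0.62, SE 0.15, adjusted p = 0.00466), and *Scnn1b* fell by 0.46 on the log2 scale (SE 0.13, adjusted p = 0.00802). *Gata3*, a transcription factor of the collecting duct lineage, fell by 0.46 (SE 0.10, adjusted p = 0.00315) and *Fxyd4*, a regulator of the sodium pump, by 0.59 (SE 0.16, adjusted p = 0.00855). The 16 genes summed to 1880 to 4187 CPM in RGLS4326, 2985 to 4719 CPM in PBS and 1962 to 3006 CPM in UNT kidneys.

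*Gata3* was the only principal cell marker called without the 4 RGLS4326 libraries, with a list median of -0.294. Among 16 markers of intercalated cells, which secrete acid and base, 2 rose and 2 fell (12.5% each, below the shares of all tested genes). The count lower was 4 without RGLS4326 library 4 or 10, and without the 4 RGLS4326 libraries 0 rose, 1 fell and the median went from 0.05 to -0.107. The fallen genes were *Foxi1*, the transcription factor that defines these cells, at 19.1 to 52.0 CPM against 36.4 to 69.5 CPM (-0.63, SE 0.14, adjusted p = 0.00289), and the ammonia channel *Rhcg* (-0.51, SE 0.15, adjusted p = 0.012). The risen ones, *Insrr* and *Oxgr1*, each lost the call in at least 1 fit without a single library, and the count higher went to 0 without RGLS4326 library 6 and to 5 without PBS library 8.

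Keratins and other epithelial injury genes were lower. Of 24 genes of injured or dedifferentiated tubules, 0 rose and 13 fell, with a median of -0.469. Their sum lay between 13350 and 29140 CPM (median 21780) in RGLS4326 and between 19410 and 28200 CPM (median 22470) in PBS kidneys. *Spp1*, osteopontin, named here after its values were seen, had means of 13880 and 12363 CPM in these groups and was not called (0.17, SE 0.12, adjusted p = 0.293). *Krt19*, a keratin of simple epithelium, lay between 75.3 and 194.5 CPM (median 131) in RGLS4326 and between 154 and 476 CPM (median 252) in PBS kidneys, with 3 kidneys of each group within the range of the other (-1.11, SE 0.18, adjusted p = 0.000396). *Krt18* fell by 0.77 on the log2 scale (SE 0.14, adjusted p = 0.00118), *Krt7* by 0.75 (SE 0.15, adjusted p = 0.00144) and *Anxa2*, a calcium-dependent membrane-binding protein, by 0.52 (SE 0.10, adjusted p = 0.00171). *Krt19* was called also with the no-gene covariate (adjusted p = 0.0278), and 3 of the 24 were called without the 4 RGLS4326 libraries, where the median was -0.386.

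Of 8 genes of the urothelium, the lining of the renal pelvis, 7 fell and 0 rose, with a median of -0.689. The count was 1 and the median -0.499 without the 4 RGLS4326 libraries. *Upk3a*, a uroplakin, lay between 11.0 and 17.9 CPM in RGLS4326 and between 13.6 and 43.2 CPM in PBS kidneys (-0.76, SE 0.15, adjusted p = 0.00134). *Krt5*, of basal urothelial cells, fell by 0.90 (SE 0.20, adjusted p = 0.003), *Upk3b* by 0.72 (SE 0.16, adjusted p = 0.00323) and *Upk1b* by 0.61 (SE 0.14, adjusted p = 0.00375). The 8 genes summed to 72.7 to 136 CPM in RGLS4326, 105 to 284 CPM in PBS and 45.5 to 70.5 CPM in UNT kidneys. The part of collected pelvis tissue in the falls of keratin genes was not tested.

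Markers of resident macrophages had the lowest median of the cell type lists with more than 1 tested gene, -0.954, with 13 of 18 lower and 0 higher. By the share called lower the urothelium list stood above them (87.5% against 72.2%). *Folr2*, a folate receptor, lay between 2.07 and 3.93 CPM (median 2.76) in RGLS4326 and between 3.46 and 14.2 CPM (median 6.79) in PBS kidneys (-1.35, SE 0.19, adjusted p = 8.42e-05). *Vsig4*, a complement receptor, lay between 0.0402 and 0.443 CPM against 0.308 to 2.66 CPM (-2.57, SE 0.35, adjusted p = 8.42e-05), and 10 of 11 PBS kidneys were above every RGLS4326 kidney. *Fcna*, a ficolin of macrophages, lay between 0.442 and 4.10 CPM against 2.18 to 23.2 CPM (-2.25, SE 0.35, adjusted p = 0.000273), and *Cbr2*, a carbonyl reductase, fell by 1.09 (SE 0.17, adjusted p = 0.000296).

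The calls on these 4 macrophage genes were kept where the libraries named above were left out. All 4 were called without the 4 RGLS4326 libraries, with the no-gene covariate and without PBS libraries 2 and 11. The lectin receptors *Clec10a* (-1.05, SE 0.17, adjusted p = 0.000396) and *Cd209f* (-1.82, SE 0.31, adjusted p = 0.000495) and the chemokine *Ccl8* (-1.71, SE 0.30, adjusted p = 0.000608), which macrophages make, were lower as well. Summed over the 18 markers, RGLS4326 kidneys held 693 to 968 CPM (median 846) and PBS kidneys 754 to 1182 CPM (median 912), so the sum moved far less than the median gene. *Gas6*, a ligand of receptor tyrosine kinases named here after its values were seen, had means of 464 and 471 CPM in these groups and was not called (-0.02, SE 0.07, adjusted p = 0.81). Of the 18 markers, 7 were called lower without the 4 RGLS4326 libraries and 12 without PBS libraries 2 and 11, with medians of -0.767 and -0.729.

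Pan-macrophage markers moved less. Of 19, 9 fell and 1 rose, with a median of -0.401, and without PBS library 9 only 5 fell. *Cd68*, a lysosomal protein of phagocytes, lay between 16.7 and 47.8 CPM (median 26.6) in RGLS4326 and between 27.7 and 80.8 CPM (median 57.6) in PBS kidneys (-0.80, SE 0.17, adjusted p = 0.00258), and *C1qb*, a subunit of complement C1q, fell by 0.61 (SE 0.16, adjusted p = 0.00708). *Mertk*, a receptor for apoptotic cells, was the exception and rose, from 32.5 to 62.9 CPM in PBS to 50.1 to 70.2 CPM in RGLS4326 kidneys (0.46, SE 0.09, adjusted p = 0.00131). The 19 genes summed to 1330 to 2814 CPM in RGLS4326, 1447 to 4339 CPM in PBS and 246 to 353 CPM in UNT kidneys. None of those that fell was called without the 4 RGLS4326 libraries.

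Of 17 genes of T, B and NK cells 8 fell and 0 rose (4 without PBS library 9 and 0 without the 4 RGLS4326 libraries), with median differences of 0.006, -0.339 and -0.537 within series 1, 2 and 3. Those that fell included the T-cell adhesion receptor *Cd2* at 0.285 to 0.993 CPM against 0.509 to 3.0 CPM (-1.08, SE 0.27, adjusted p = 0.00549) and the B-cell receptor component *Cd79b* (-0.60, SE 0.17, adjusted p = 0.0101). Of 9 MHC class II genes 5 fell, with a median of -0.522, but only 1 without PBS library 9, 3 without RGLS4326 library 5 or 6 or PBS library 11, and 0 without the 4 RGLS4326 libraries. *H2-DMb1*, which loads peptides on class II molecules, fell by 0.39 (SE 0.12, adjusted p = 0.0129). For 5 tested neutrophil genes 1 fell, and the count ranged from 0 to 3 when single libraries were left out.

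In the complement list 5 of 15 fell (33.3%, against 18.5% of all tested genes) and 2 rose (13.3%, against 15.3%). *C4b*, a component of the classical pathway, lay between 30.2 and 68.3 CPM in RGLS4326 and between 53.6 and 259 CPM in PBS kidneys (-1.26, SE 0.23, adjusted p = 0.000934), and *C6* fell by 1.36 (SE 0.28, adjusted p = 0.00216). *C7*, a later component of the membrane attack complex, rose by 0.58 (SE 0.13, adjusted p = 0.00322). *C4b*, *C6* and *C7* were called also without the 4 RGLS4326 libraries and without PBS libraries 2 and 11.

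Cytokine and interferon genes were called lower at shares near that of all genes, 19.2% and 24% against 18.5%. Of 26 cytokine, chemokine and NF-kappaB genes 5 fell and 0 rose, a count that ranged from 3 to 8 when each library was left out and was 1 without the 4 RGLS4326 libraries and 2 without PBS libraries 2 and 11; the chemokine *Ccl20* fell by 0.95 (SE 0.22, adjusted p = 0.00418) and the chemokine *Cxcl16* by 0.34 (SE 0.09, adjusted p = 0.00859). Of 25 interferon-stimulated genes 6 fell and 3 rose, the latter count ranging from 0 to 3 over the fits that left out 1 library. Without PBS library 9, 2 fell, and without PBS library 11 or RGLS4326 library 6, 3 fell, while none did without the 4 RGLS4326 libraries; *Oasl1*, an antiviral protein, fell by 0.65 (SE 0.17, adjusted p = 0.00753).

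The named genes with the largest decreases included *Hp*, *Slpi*, *Ltf* and *Serpina3c*. *Hp*, haptoglobin, lay between 12.2 and 79.4 CPM (median 26.8) in RGLS4326 and between 46.0 and 361 CPM (median 139.5) in PBS kidneys (-1.92, SE 0.36, adjusted p = 0.00114). *Slpi*, a leukocyte protease inhibitor, lay between 0.804 and 3.46 CPM against 2.56 to 14.1 CPM (-1.96, SE 0.35, adjusted p = 0.000835), and *Ltf*, lactoferrin, fell by 1.87 (SE 0.36, adjusted p = 0.00129). *Serpina3c*, a protease inhibitor, fell by 1.77 (SE 0.36, adjusted p = 0.00191). In each of these the groups overlapped, with 9 of 11 PBS kidneys above every RGLS4326 kidney for *Serpina3c*, 7 for *Hp* and 6 for *Ltf*. *Hp*, *Slpi* and *Ltf* were called also without PBS libraries 2 and 11 (adjusted p = 0.00989, 0.00873 and 0.0125).

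For several other large decreases, leaving out PBS libraries 2 and 11 removed the call. *Star*, which delivers cholesterol to steroid synthesis, had the largest fold change among the named genes (-4.13, SE 0.86, adjusted p = 0.00205), with 301.7 and 450.3 CPM in these libraries against a PBS median of 3.49 CPM, and its log2 fold change was -0.198 (adjusted p = 0.715) without them. *Akr1b7*, abundant in the adrenal cortex, went from -1.89 to 0.057, *Dlk1* from -2.09 to 0.177, *Mgarp* from -1.56 to -0.141 and *Akr1c18* from -3.77 to -0.622, and none of these was called without both libraries. Calls on 2 further genes were kept with smaller values. *Cyp2f2*, a cytochrome P450, fell by 2.49 (SE 0.48, adjusted p = 0.00131), by 1.58 without PBS library 11, and remained called without both (adjusted p = 0.0141). *Saa3*, an acute-phase protein, went from -1.76 to -1.33 without PBS library 2, but its log2 fold change was 0.226 in file series 2 alone.

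Adipose genes were lower in RGLS4326 kidneys. Of 8 listed, 4 fell and 0 rose, with a median of -0.793. Without PBS libraries 2 and 11, 4 were called with a median of -0.67, and without the 4 RGLS4326 libraries 1 was called with a median of -0.706. *Cfd*, the complement factor adipsin that fat cells secrete, lay between 30.1 and 104 CPM (median 54.3) in RGLS4326 and between 58.6 and 329 CPM (median 140.2) in PBS kidneys (-1.58, SE 0.31, adjusted p = 0.00165). *Adipoq*, adiponectin, fell by 0.97 (SE 0.25, adjusted p = 0.00687), *Retn*, resistin, by 1.55 (SE 0.38, adjusted p = 0.00507) and *Cidec*, a lipid droplet protein, by 1.0 (SE 0.28, adjusted p = 0.01). The list summed to 138 to 299 CPM in RGLS4326, 261 to 576 CPM in PBS and 117 to 545 CPM in UNT kidneys. The part of perirenal fat in these values was not tested.

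For blood and muscle there was little signal. Of 9 erythroid genes 2 were tested and 0 called, and *Hbb-bt* and *Hbb-b2* had no count in any *Pkd2*-KO library. The 8 muscle genes gave 3 tested and 1 called, *Acta1*, whose call was lost without PBS library 2 (adjusted p = 0.0655).

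Endothelial and glomerular genes were higher. Of 18 endothelial genes 9 rose and 0 fell, with a median of 0.17. In the fit without the 4 RGLS4326 libraries 6 of the 18 were called higher, and the median of the list was 0.278. *Kdr*, the main receptor for vascular endothelial growth factor, lay between 60.6 and 74.6 CPM (median 69.2) in RGLS4326 and between 29.5 and 62.1 CPM (median 49.9) in PBS kidneys (0.43, SE 0.09, adjusted p = 0.00203). *Tek*, the angiopoietin receptor, rose by 0.42 (SE 0.09, adjusted p = 0.00258), *Ptprb*, its phosphatase, by 0.46 (SE 0.11, adjusted p = 0.00334) and the transcription factor *Sox17* by 0.46 (SE 0.10, adjusted p = 0.00323). Of the PBS kidneys, 9 of 11 lay below every RGLS4326 kidney for *Kdr*.

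Of 14 podocyte genes 8 rose and 1 fell, with a median of 0.184, and the call on the gene that fell was lost in 12 of the 22 fits that left out a library. *Robo2*, a receptor for the guidance cue Slit, lay between 17.4 and 24.4 CPM against 8.33 to 20.6 CPM (0.61, SE 0.12, adjusted p = 0.00143), and *Clic5* rose by 0.33 (SE 0.08, adjusted p = 0.00552). *Robo2* alone remained called without the 4 RGLS4326 libraries. In the list of lymphatic and smooth muscle genes 3 of 9 rose and 2 fell, but 1 rose and 0 fell without the 4 RGLS4326 libraries. *Mylk*, the myosin light chain kinase, rose by 0.46 (SE 0.10, adjusted p = 0.0024) and *Pdpn*, podoplanin, which lymphatic endothelium and podocytes make, fell by 0.57 (SE 0.12, adjusted p = 0.00224).

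The axon guidance and synapse list held a high share of genes that rose, 17 of 36 tested with 1 lower and a median of 0.395. Besides *Fat3*, *Unc13c*, *Gria4* and *Robo2*, the large increases *Negr1*, a neuronal adhesion molecule (7.76 to 23.6 CPM against 3.42 to 9.63 CPM, 1.11, SE 0.19, adjusted p = 0.000495), and *Kcnd2*, a potassium channel subunit (1.18, SE 0.20, adjusted p = 0.000608), were of neuronal type. The gene that fell was *Sema3e*, a secreted guidance cue (-0.42, SE 0.09, adjusted p = 0.00192). Without the 4 RGLS4326 libraries 7 were called higher and the median was 0.354, and without PBS libraries 2 and 11 it was 16 and 0.372. Levels of several members were low, and the median log2 fold change of UNT minus PBS over the list was -0.621.

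Of 37 fibroblast and matrix genes 3 rose (8.11%, against 15.3% of all tested genes) and 4 fell (10.8%, against 18.5%), with a median of 0.052. *Pdgfra*, the growth factor receptor of fibroblasts, lay between 126 and 243 CPM in RGLS4326 and between 66.0 and 181 CPM in PBS kidneys (0.53, SE 0.11, adjusted p = 0.00265), and the collagens *Col6a3* (0.53, SE 0.15, adjusted p = 0.0102) and *Col14a1* (0.40, SE 0.11, adjusted p = 0.0102) rose. The calcium-binding protein *S100a6* fell by 0.82 on the log2 scale (SE 0.16, adjusted p = 0.00129). The number lower was 2 without PBS library 2 or 9 or RGLS4326 library 6, and 7 without PBS library 5 or 7 or RGLS4326 library 10.

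Of 41 Wnt pathway genes 14 fell (34.1%, against 18.5% of all tested genes) and 6 rose (14.6%, against 15.3%), with a median of -0.094, and 9 fell without RGLS4326 library 6. The 4 with the smallest p among those that fell were ligands. *Wnt9a* lay between 17.7 and 27.1 CPM (median 23.9) in RGLS4326 and between 24.5 and 72.2 CPM (median 44.4) in PBS kidneys (-0.88, SE 0.14, adjusted p = 0.000246). *Wnt7b*, a ligand made by the collecting duct, fell by 0.74 (SE 0.13, adjusted p = 0.000934), *Wnt7a* by 1.06 (SE 0.21, adjusted p = 0.00168) and *Wnt10a* by 0.67 (SE 0.14, adjusted p = 0.00195). *Wnt5a*, a ligand of the non-canonical branch, rose by 0.38 (SE 0.11, adjusted p = 0.0104), as did the receptor *Fzd3* (0.32, SE 0.10, adjusted p = 0.0147) and the antagonist *Dkk2* (0.26, SE 0.08, adjusted p = 0.016). *Wnt9a*, *Wnt7b* and *Wnt7a* were called also without the 4 RGLS4326 libraries (adjusted p = 0.014, 0.0408 and 0.0452).

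Cyclic AMP, ErbB and cilium genes belong to pathways often tied to cyst growth. None of the 3 lists was called at shares well above those of all tested genes (15.3% higher, 18.5% lower), with 11.1% higher and 14.8% lower for cyclic AMP, 7.69% and 15.4% for EGF and 15% and 7.5% for cilium genes. Of 27 genes of cyclic AMP signalling and chloride secretion 3 rose and 4 fell; *Avpr2*, the vasopressin receptor of the collecting duct, lay between 27.7 and 110.2 CPM against 53.5 to 144 CPM (-0.62, SE 0.18, adjusted p = 0.012), the phosphodiesterase *Pde3a* rose by 0.57 (SE 0.16, adjusted p = 0.00983), and the kinase subunit *Prkaca* fell by 0.21 (SE 0.07, adjusted p = 0.0158). Of 13 genes of the EGF family *Egf*, described above, rose and 2 fell, with *Erbb2*, a receptor, at -0.25 (SE 0.07, adjusted p = 0.00936) and the ligand *Tgfa* at -0.25 (SE 0.07, adjusted p = 0.0114). Of 40 cilium genes 6 rose and 3 fell, and none of them changed by more than 0.5. The number of cyclic AMP genes that rose was 1 without RGLS4326 library 5, 6, 7 or 11 or PBS library 8 or 9. No gene of these 3 lists was called without the 4 RGLS4326 libraries.

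Proliferation genes held few calls. Of 25 genes of mitosis 4 rose (16%, against 15.3% of all tested genes) and 0 fell, with a median of 0.177, and of 30 genes of DNA replication 3 rose (10%) and 0 fell, with a median of -0.015. In 6 of the 22 fits that left out a library, those without RGLS4326 library 1, 4 or 8 or PBS library 5, 6 or 7, 1 replication gene was called lower. The mitotic count ranged from 1 to 6 when each library was left out. Both counts were 0 without the 4 RGLS4326 libraries, without file series 2 and without PBS libraries 2 and 11. *Bub1*, a spindle checkpoint kinase, lay between 4.97 and 11.4 CPM in RGLS4326 and between 3.13 and 6.93 CPM in PBS kidneys (0.61, SE 0.20, adjusted p = 0.0193).

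Among 23 genes of the p53 response and cell cycle inhibitors 9 fell and 3 rose, with a median of -0.108. Without PBS library 9, 6 fell and the median was -0.043, and 5 rose without RGLS4326 library 3, 4 or 8 or PBS library 5. *Phlda3*, a p53-induced repressor of Akt, lay between 18.6 and 43.3 CPM against 30 to 69.4 CPM (-0.72, SE 0.16, adjusted p = 0.00334), *Zmat3* fell by 0.36 (SE 0.08, adjusted p = 0.0039), *Bax*, which promotes apoptosis, by 0.42 (SE 0.10, adjusted p = 0.00435) and *Cdkn2a*, whose symbol covers the transcripts of p16 and p19Arf, by 1.01 (SE 0.25, adjusted p = 0.00505). The retinoblastoma genes *Rb1* (0.45, SE 0.11, adjusted p = 0.00504) and *Rbl1* (0.31, SE 0.08, adjusted p = 0.00653) rose. Of 18 Myc network genes 4 fell (22.2%, near the 18.5% of all tested genes) and of 19 immediate early genes 6 fell (31.6%), with 0 higher in both; *Fbl*, a nucleolar methyltransferase, fell by 0.32 (SE 0.09, adjusted p = 0.00751) and *Fosb* by 0.74 (SE 0.20, adjusted p = 0.00826). Without PBS library 2 or 4 or RGLS4326 library 6 these counts were 2 and 3, and the Myc count was 1 without PBS library 9. Both went to 1 without PBS libraries 2 and 11, and no gene of the p53 or immediate early lists was called without the 4 RGLS4326 libraries.

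Among metabolic genes, glycolysis held more calls than the mitochondrial lists, but not in every fit. Of 18 glycolytic genes 10 fell and 0 rose, with a median of -0.215. The number was 0 without the 4 RGLS4326 libraries, 4 without file series 2 and 5 without PBS libraries 2 and 11. *Pkm*, pyruvate kinase, lay between 298 and 518 CPM in RGLS4326 and between 379.9 and 702 CPM in PBS kidneys (-0.44, SE 0.10, adjusted p = 0.003), and the aldolase *Aldoa* fell by 0.40 (SE 0.10, adjusted p = 0.00505). Of 35 genes of fatty acid oxidation 3 rose (8.57%, against 15.3% of all tested genes) and 1 fell (2.86%, against 18.5%). The latter was called in only 10 of the 22 fits that left out a library. The median differences were 0.402, -0.274 and 0.122 within series 1, 2 and 3. Those that rose included *Ppargc1a*, the coactivator of mitochondrial biogenesis, at 59.8 to 91.0 CPM against 22.8 to 72.4 CPM (0.53, SE 0.14, adjusted p = 0.00639), and *Ppara*, the nuclear receptor it serves, at 58.6 to 125 CPM against 38.9 to 125 CPM (0.61, SE 0.16, adjusted p = 0.00806). The number higher was 6, 8 and 6 without PBS library 5, 7 and 8, and 11 without file series 2. *Ppara* alone was called without the 4 RGLS4326 libraries.

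Of 47 genes of oxidative phosphorylation 1 rose (2.13%, against 15.3% of all tested genes) and 2 fell (4.26%, against 18.5%). The latter count ranged from 0 without PBS library 9 or RGLS4326 library 5 or 7 to 6 without RGLS4326 library 8. Of 18 of the tricarboxylic acid cycle 2 rose (11.1%, against 15.3% of all tested genes), *Dld* by 0.35 (SE 0.09, adjusted p = 0.00711) and *Sucla2* by 0.25 (SE 0.08, adjusted p = 0.0183). Of the latter list 4, 6 and 4 rose without PBS library 5, 7 and 8. In cholesterol synthesis 3 of 23 rose (13%) and 1 fell, with *Idi1* at 0.62 (SE 0.17, adjusted p = 0.00925) and *Hmgcs1* at 0.45 (SE 0.13, adjusted p = 0.0116). Over the fits that left out 1 library, 3 to 5 of this list rose and 0 to 4 fell, with 5 higher without RGLS4326 library 4 or 10 or PBS library 1 or 8, 4 lower without PBS library 7 and 0 lower without PBS library 2 or 9. Of 15 antioxidant genes of Nrf2 3 fell (20%, and 5 genes without PBS library 5, 6 or 7 or RGLS4326 library 8) and 1 rose, a call lost in 13 of the 22 fits that left out a library, with *Hmox1*, heme oxygenase, at 23.8 to 47.4 CPM against 35.8 to 71.4 CPM (-0.56, SE 0.17, adjusted p = 0.0125). Of 21 stress response genes 4 fell (19%, against 18.5% of all tested genes) and 2 rose (9.52%, against 15.3%), 1 without RGLS4326 library 5 or 9; the serine and asparagine synthesis genes *Phgdh* (-0.54, SE 0.12, adjusted p = 0.003) and *Asns* (-0.60, SE 0.11, adjusted p = 0.00119) fell, and *Vldlr*, a lipoprotein receptor, rose (0.38, SE 0.09, adjusted p = 0.00334). *Asns* was called also without the 4 RGLS4326 libraries (adjusted p = 0.04), a fit in which no gene of oxidative phosphorylation, the tricarboxylic acid cycle, cholesterol synthesis or Nrf2 was called.

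Some lysosomal genes were lower. Of 27, 13 fell, 1 rose and 13 were not called, with a median of -0.163. *Ctsd*, the protease cathepsin D, lay between 1014 and 2618 CPM in RGLS4326 and between 1639 and 3303 CPM in PBS kidneys (-0.60, SE 0.14, adjusted p = 0.00347), and *Lamp2*, a lysosomal membrane protein, rose by 0.34 (SE 0.10, adjusted p = 0.0109). None was called without the 4 RGLS4326 libraries.

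Counts of calls in the 2 classes defined by gene name changed when libraries were left out. Of 79 genes of cytosolic ribosomal proteins 62 fell and 0 rose, with a median of -0.344 (-0.216 without PBS library 9). *Rpl18* lay between 175 and 249 CPM in RGLS4326 and between 213 and 456 CPM in PBS kidneys (-0.44, SE 0.10, adjusted p = 0.00296), and PBS library 9 held the highest sum over the class, 47750 CPM against 21630 to 47750 CPM over all PBS and 19140 to 24070 CPM over RGLS4326 kidneys. Without that library 50 fell. Of 342 zinc finger genes of the Zfp series 111 rose and 22 fell (13 without PBS library 9), with a median of 0.162; *Zfp942* rose by 0.89 (SE 0.20, adjusted p = 0.0031) and *Zfp553* fell by 0.29 (SE 0.07, adjusted p = 0.00516). Without the 4 RGLS4326 libraries no ribosomal gene was called (median -0.249), and 0 Zfp genes were called higher and 1 lower (median 0.023).

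Other fits moved the counts of many lists. With the no-gene covariate, 7 genes of resident macrophages, 2 of the Wnt pathway and 1 of tubular injury were called lower. In that fit 3 genes of axon guidance, 2 of endothelium and 1 each of the proximal tubule, the miR-17 signature and the pan-macrophage list were called higher, and no other listed gene was called. Without file series 2, the count lower went from 9 to 3 for pan-macrophage, from 8 to 5 for lymphocyte, from 5 to 0 for MHC class II, from 6 to 1 for interferon-stimulated and from 13 to 5 for lysosomal genes, and it was 11 for resident macrophage genes and 7 for urothelium. In the same fit the count higher went from 17 to 11 for axon guidance, from 8 to 4 for podocyte and from 111 to 13 for Zfp genes, and that of the proximal tubule from 16 to 20. The Wnt count lower was 7 both without file series 2 and without PBS libraries 2 and 11. Without PBS libraries 2 and 11, the count lower was 4 for pan-macrophage, 5 for lymphocyte, 8 for lysosomal and 1 for both MHC class II and interferon-stimulated genes, and the count higher was 5 for endothelium and 68 for Zfp genes.

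The calls also varied with the length of the gene in the genome. Of 1893 genes that span less than 5 kb, 98 (5.18%) were called higher and 639 lower, and of 799 genes over 200 kb, 232 (29%) were higher and 31 lower. Between these the share called higher was 7.01% from 5 to 10 kb, 10.7% to 20 kb, 16.8% to 50 kb, 24.5% to 100 kb and 23.7% to 200 kb. The direction was the same without the 4 RGLS4326 libraries, with 3 higher and 38 lower under 5 kb and 40 higher and 1 lower over 200 kb, and in the medians of each file series, at -0.064, -0.149 and -0.176 under 5 kb and 0.089, 0.092 and 0.185 over 200 kb. Ribosomal protein genes are short, whereas many genes of the axon guidance list are long. The part of gene length in the list differences was not tested.

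Noncoding transcripts and a few membrane proteins were among the other large increases. *Snhg11*, a long noncoding RNA, lay between 5.43 and 71.3 CPM (median 32.9) in RGLS4326 and between 5.80 and 34.8 CPM (median 14.5) in PBS kidneys (1.21, SE 0.32, adjusted p = 0.00694), and 117 to 247 CPM in UNT kidneys. *Dnm3os*, a noncoding antisense transcript, lay between 0.942 and 21.4 CPM against 1.18 to 8.24 CPM (1.57, SE 0.40, adjusted p = 0.00584). Both were not called without the 4 RGLS4326 libraries (adjusted p = 0.344 and 0.577), and the log2 fold change of *Dnm3os* was -0.055 with the no-gene covariate. *Corin*, a protease that activates natriuretic peptide, rose by 1.15 (SE 0.29, adjusted p = 0.006), *Ryr2*, a calcium release channel, by 1.09 (SE 0.23, adjusted p = 0.0024) and *Fpr1*, a formyl peptide receptor, by 1.19 (SE 0.25, adjusted p = 0.00255), the last called also with the no-gene covariate (adjusted p = 0.0278).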

How the data were processed

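Per the labels and the study's methods, the authors made stranded libraries of polyadenylated kidney RNA, sequenced paired ends on a NextSeq 500, trimmed with Trim Galore, aligned to mouse GRCm38 (mm10) with STAR and counted uniquely aligned reads with HTSeq 0.6.1; the annotation and strand setting are not given in the sources used here. The deposited values were raw counts per gene symbol, 1 table of 23509 genes per mouse, without normalization. Reads in no gene, ambiguous or not unique were left out of library sizes. All 34 libraries entered 1 fit (edgeR 4.0.16, R 4.3.3; TMM, filterByExpr, quasi-likelihood test, 3 groups), contrasted as RGLS4326 minus PBS; DESeq2 1.42.0 was an alternative. The procedure was tested on simulated data. The comparison and the 47 gene lists were chosen with earlier results of these data known. Named genes were *Pkd1*, *Pkd2* and the signature, the 15 largest changes per direction (mean of at least 1 CPM), up to 10 per direction without overlap, up to 4 per list and direction by p, 10 higher and 5 lower genes with an 8-base match, and 10 per direction of the same sign in each file series; of these 261, mainly the 211 called in all 22 fits that left out a library are named, and others with that library or the range; some are not reported here. Genes overlapping exons of another gene (36.8% of those tested) are uncertain, since strand use in counting is unknown. Gene positions and 3′UTRs came from GENCODE M21 (99.0% of tested symbols matched). The spread between mice, not counting error alone, sets the standard errors.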

Additional observations from a re-analysis of the deposited data

How the results depend on the processing

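The fit of all 34 libraries called 5280 genes, 2388 higher and 2892 lower after RGLS4326. The total stayed within 1.5 times of this with RLE normalization (5297), DESeq2 (5700), no filter on low counts (4943), the 22 *Pkd2*-KO libraries alone (4445), the file series as a block (5859), a covariate for reads not uniquely aligned (6059) and a Y-linked transcript as a covariate (5535). Leaving out each library in turn gave 4023 to 6209 genes, 1735 to 2880 higher and 2070 to 3329 lower. The total was 89 (56 higher, 33 lower) with the no-gene percent as a covariate, 54 (41 and 13) in file series 1 alone and 0 (0 and 0) in series 3 alone, where edgeR gave 2826 genes at an unadjusted p under 0.05; each series alone has fewer samples. Series 2 alone called 4065 genes, of which 1901 were lower. In 3 alternatives chosen after seeing the data, the total was 2335 (993 and 1342) without file series 2, 332 (179 and 153) without the 4 RGLS4326 libraries above 11% of reads in no gene, and 2836 (1205 and 1631) without PBS libraries 2 and 11. The share of genes with an 8-base match that were called higher went from 29.5% to 1.59% with the no-gene covariate and to 4.29% without the 4 RGLS4326 libraries, and was 32.2% with the series block and 30% with any annotated 3′UTR. The labels number the mice in both groups without saying that a number is shared; 5 of 11 same-numbered pairs deviated together (correlation over 0.1) and 1 RGLS4326 library correlated best with its own number, so the numbers were not taken to pair the mice, and the fit with a replicate block called 4420 genes (1925 higher, 2495 lower).

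Of the 256 named genes that were called, 219 lost the call with the no-gene covariate, 187 without the 4 RGLS4326 libraries, 80 without file series 2, 62 without PBS libraries 2 and 11, and 25 with the replicate block. Log2 fold changes turned sign with the no-gene covariate for *Dnm3os* (-0.055), *Mir3064* (-0.126), *Mir17hg* (-0.304) and *Nagk* (0.118), and without the 4 RGLS4326 libraries for *Mir17hg* (-0.065) and *Nagk* (0.057). In series 1 alone they turned for *Cd3d* (0.036), *Gstm1* (0.068), *Creb1* (-0.020), *Atp5o* (0.028), *Adcy7* (-0.011), *Mtf1* (-0.033) and *Nagk* (0.046), and in series 2 alone for *Akr1b7* (0.256), *Saa3* (0.226) and *Dlk1* (0.452). Without PBS libraries 2 and 11 they turned for *Akr1b7* (0.057) and *Dlk1* (0.177). *Nagk*, which was not called, lay between -0.054 and 0.037 when each library was left out. The cause of these changes was not tested.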
